A study of Zea mays with 16 samples.

Results

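The 200 probes described here gave the strongest signals among those whose mean level hardly differed between 1.0 mm and 2.0 mm maize anthers. They were chosen by 3 values. A probe had to be well above background in all 16 samples, its mean level at 2.0 mm had to lie within 0.25 on the log2 scale (1.19-fold) of that at 1.0 mm, and its mean level over all samples had to be among the 200 highest of the probes that met both conditions. Level means the log2 of the processed signal minus the median of the sample, taken over the 28295 probes well above background in every sample. The array carried 42034 maize probes, and 8706 of the 28295 (30.8%) met the stage limit. The 200 probes make up 0.476% of the maize probes. Because level and stage difference chose them, both are given as descriptions without a test.

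The samples were whole anthers of maize plants with an active mutator system (*Mu* active) and of their siblings that carried *Mu killer*. Both were taken at the 1.0 mm (pre-meiotic) and the 2.0 mm (meiotic) stage. The study describes the carriers as silenced, and it chose the plants by kernel color and by PCR for *Mu killer* on genomic DNA. All plants descended from an active mutator line with many *Mu* elements, *Mu killer* siblings included, and each sample pooled several anthers. Every array carried RNA of both lines, 1 in Cy3 and 1 in Cy5, which gave 8 arrays, 4 per stage, and 4 samples per line and stage. Each stage had a slide of its own, so stage and slide cannot be told apart.

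The label of each Cy5 sample repeats the line of the Cy3 sample on its array, although the design is described as a balanced dye swap. The Cy3 labels were kept and the Cy5 samples were given the other line. The direction of each line difference below is therefore likely rather than settled. Its basis is that the plant codes of the Cy3 labels are the ones the legend of the design drawing assigns to Cy3, whereas the color key of the drawing gives the opposite. The opposite reading exchanges higher and lower and leaves the sizes.

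*MuDR* is the autonomous element of the Mutator family of maize transposons. It encodes the transposase in *mudrA* and a second protein in *mudrB*. *Mu killer* is a dominant locus, derived from a rearranged part of *MuDR*, that can silence active elements. Anther lobes differentiate their wall layers before the central cells enter meiosis, so many transcripts rise or fall over the interval sampled here. Transcripts that remain abundant across such an interval in plant tissues commonly belong to shared cell machinery, such as the ribosome, the cytoskeleton and primary metabolism. Whether that holds for these 200 could not be read from the array, whose descriptions name no product for any of them.

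Of the 200 identifiers, 194 were tentative consensus numbers (TC, assembled from expressed sequence tags) and 6 were accessions of single sequences. TC numbers made up 97% of the selected probes and 73.9% of all 28295 tested probes. Each identifier was represented by 1 selected probe. No identifier matched the reference gene table, so the probes are given without gene names, functions or sequences. None of the spots was saturated in any sample, and the scanner software marked 1 of their spots on 1 array as an outlier, in both colors.

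Probe signals depend on how well a probe binds as well as on the amount of RNA, so an order of levels is an order of probe signals. In whole anthers, a change in the number of cells of a type and a change in RNA per cell cannot be told apart. Between 32697 and 37898 maize probes per sample were well above background. The meiotic regulator *ameiotic1* (AM1) had 3 probes, and 2 of them passed the background criterion in every sample, with mean levels of -0.34 and -3.13. The 4 probes named for *MuDR* passed it in every sample too. Each of the 4 overlapped between the lines. The difference in mean level (*Mu killer* minus *Mu* active) was -0.81 for the probe named MUDR-TIRA, which ranged from 1.26 to 5.35 in *Mu* active and from 1.21 to 3.69 in *Mu killer*. It was 0.07 and 0.23 for the 2 *mudrA* probes and -0.19 for the *mudrB* probe, so these probes did not separate the lines as assigned here. The paper reports that *Mu killer* itself holds the terminal repeat next to *mudrA* (TIRA) and parts of *mudrA*. It also states that every maize line carries defective, transcribed *hMuDR* elements. Which of these copies each probe binds is not given, so silencing cannot be read from the 4 probes. No AM1 or *MuDR* probe was among the 200.

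The mean levels of the selected probes ran from 6.17 to 9.47, with a median of 6.97, against a median of -0.04 over all tested probes. The strongest was thus 709 times, the median one 125 times and the weakest 71.9 times the sample median. Together they took between 13.6% and 15.4% of the summed processed signal of the maize probes in the 1.0 mm samples, and between 12.3% and 14.1% in the 2.0 mm samples. The ranges of the stages overlapped.

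**Figure D1:**
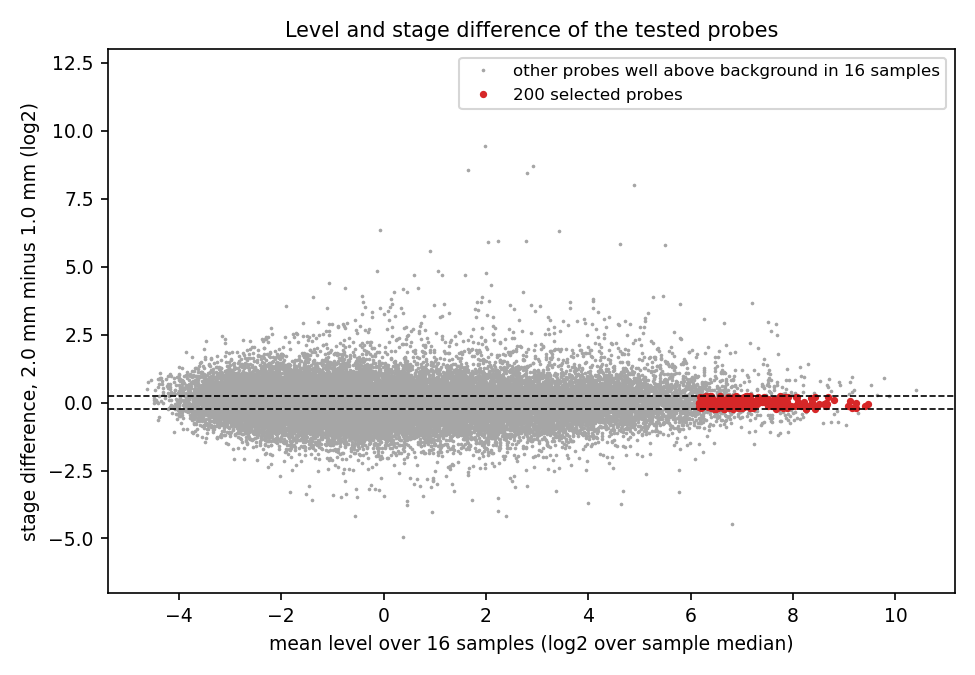
Each point is a probe well above background in all 16 samples, with the mean level on the x axis (log2 over the sample median) and the stage difference on the y axis (log2, 2.0 mm minus 1.0 mm). The dashed lines mark 0.25 in either direction, and the 200 selected probes (red) fill the right end of the band between them, from 6.17 to 9.47.

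Strong signal alone did not place a probe in the set. Of the 533 probes at or above the level of the last selected probe, 333 exceeded the stage limit, 196 of them higher and 137 lower at 2.0 mm. The selected probes held 22 of the 50, 42 of the 100 and 75 of the 200 highest levels. At the level threshold, TC287333 (6.17) and TC279402 (6.17) were the last to enter, and TC304872 (6.17) and TC311119 (6.17) were the first left out, with differences in the third decimal. At the stage limit, TC281636 (0.25) and TC287120 (-0.25) lay just inside. TC300134 (-0.25) and TC300479 (0.25) lay just outside, also by the third decimal. The thresholds are points on a continuum, not gaps between kinds of probes.

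TC299153 had the highest mean level, 9.47, and was sixth among all tested probes. In *Mu* active its levels were 9.86, 9.66, 9.30 and 9.21 at 1.0 mm and 9.26, 9.70, 9.68 and 9.26 at 2.0 mm. In *Mu killer* they were 9.60, 9.45, 9.62 and 9.23 at 1.0 mm and 9.31, 9.38, 9.54 and 9.45 at 2.0 mm. All 4 groups overlapped, and the spread among *Mu* active samples was wider than the distance between any 2 group means.

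TC310246 followed at a mean of 9.40, from 9.19 to 9.95 at 1.0 mm (median 9.46) and from 9.03 to 9.72 at 2.0 mm (median 9.30). TC279831 had a mean of 9.23 and ranged from 8.88 to 9.99 at 1.0 mm (median 9.16) and from 8.79 to 9.33 at 2.0 mm (median 9.14). TC292549 had a mean of 9.22, with 8.58 to 9.64 at 1.0 mm (median 9.41) and 7.99 to 9.67 at 2.0 mm (median 9.32). In each of these 3 the stage ranges overlapped over most of their length, and the neighbors in this order differed by less than their spread between samples.

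TC299030 (mean 9.16) ranged from 8.87 to 9.58 at 1.0 mm and from 8.56 to 9.45 at 2.0 mm. TC298893 (mean 9.11) was the widest of the 12 strongest probes, from 8.36 to 9.57 at 1.0 mm and from 8.20 to 10.30 at 2.0 mm. TC310302 (mean 9.07) kept between 8.74 and 9.48 in all samples. The small stage difference of TC298893, 0.04, was therefore a mean over samples that lay far apart, whereas those of TC310302 lay close together.

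The other 5 of the 12 strongest probes had means of 8.80 (TC304926), 8.68 (TC286664), 8.67 (TC299032), 8.65 (TC310490) and 8.64 (TC297938). Their lowest and highest values over both stages were 8.14 and 9.27 for TC304926, 8.32 and 9.23 for TC286664, and 8.33 and 8.98 for TC299032. TC310490 ranged from 8.27 to 9.24, and TC297938 from 7.85 to 9.21. All 12 had overlapping stages. Their rank among all tested probes moved from sample to sample, for instance between 2 and 21 for TC299153 and between 8 and 107 for TC297938.

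**Figure D2:**
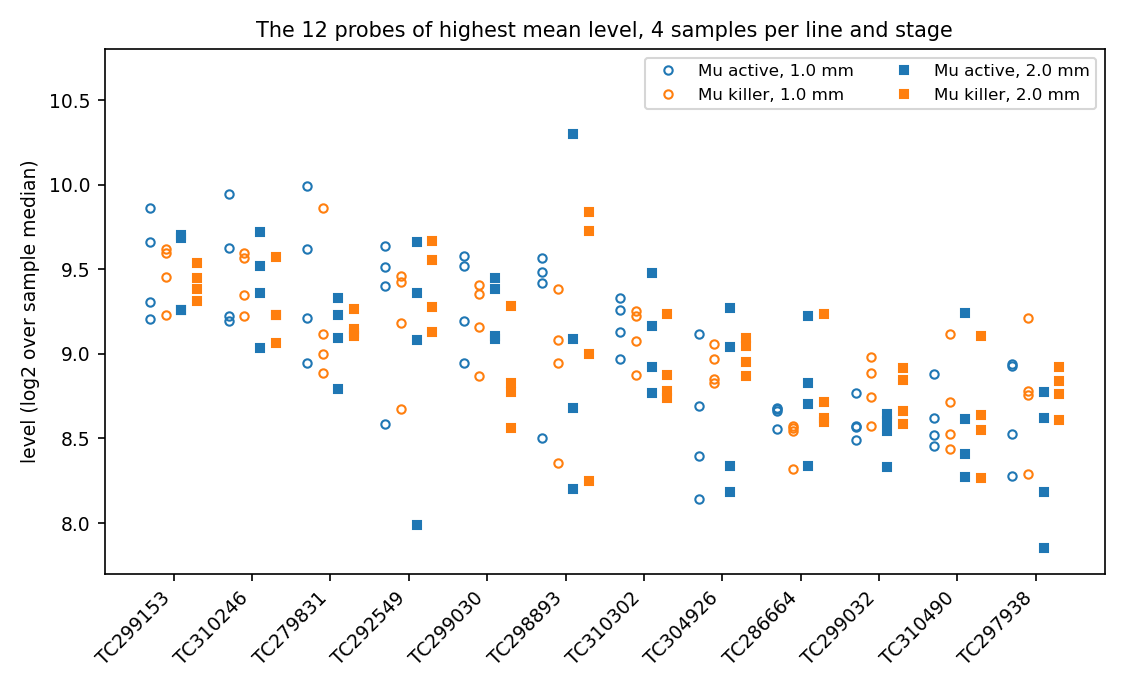
Levels (y axis, log2 over the sample median) of the 12 selected probes with the highest mean, in 4 samples per line and stage (blue, *Mu* active; orange, *Mu killer*; open circles, 1.0 mm; filled squares, 2.0 mm). Stages and lines overlap for every probe, and TC298893 has the widest range at 2.0 mm, from 8.20 to 10.30.

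The stage difference of the 200 probes had a median of -0.01 and a range of -0.25 to 0.25, with 97 higher and 103 lower at 2.0 mm. Over all tested probes its median was 0.02, its quartiles were -0.40 and 0.45, and its range was -4.94 to 9.45. A mean over both lines can hide lines that move apart. Within *Mu* active alone the stage differences of the 200 ranged from -0.61 to 0.56, and 157 stayed under 0.25 in size. Within *Mu killer* alone they ranged from -0.57 to 0.46, and 161 stayed under 0.25. Both lines met the limit for 127 probes, and for 81 probes the 2 lines moved in opposite directions. The rule kept the mean of both lines within 0.25, which favors opposite directions. The 81 were not counted beside all tested probes and do not show that the lines differed.

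Within a stage, the selected probes varied less between samples than most tested probes, a measure that the choice did not use directly. The median SD after the stage means were removed was 0.32 for the 200 probes and 0.48 for all tested probes, and 170 of the 200 were below the latter. It is a description, since the probes were chosen for a high level and a small stage difference, and the part of either in it was not tested. Both sets were more variable at 2.0 mm. The median SD rose from 0.26 (n = 8) to 0.35 (n = 8) for the selected probes and from 0.41 to 0.52 for all tested probes, with a larger SD at 2.0 mm for 73% of the former and 73.2% of the latter.

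The steadiest probe was TC310261, with an SD of 0.14. It read 7.92, 8.01, 7.82 and 7.64 in *Mu* active and 8.04, 7.89, 7.67 and 8.01 in *Mu killer* at 1.0 mm. At 2.0 mm it read 7.65, 7.92, 8.01 and 7.79 in *Mu* active and 7.90, 8.01, 7.82 and 7.93 in *Mu killer*. All 16 values thus lay between 7.64 and 8.04, with no group apart from the others. TC279856 (SD 0.15) stayed between 6.90 and 7.47, and TC311468 (SD 0.16) between 6.06 and 6.70.

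At the other end, 30 of the 200 probes had an SD over 0.5, so a small stage difference did not mean a steady level. TC280273 was the most variable (SD 1.03), and its spread followed the line, as described below. CO450831 (SD 0.90) ranged from 5.25 to 7.53 at 1.0 mm and from 5.34 to 8.35 at 2.0 mm. Its *Mu* active samples at 2.0 mm read 5.52, 8.35, 5.99 and 5.34 and its *Mu killer* samples 5.91, 7.02, 5.51 and 6.52, so the array of replicate 2 was high in both colors. TC304871 (SD 0.79) behaved alike at 2.0 mm. It read 7.61, 8.14, 6.74 and 5.37 in *Mu* active and 6.77, 8.81, 6.35 and 6.74 in *Mu killer*, whereas its 1.0 mm samples lay between 6.47 and 7.31.

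Part of the spread was shared by the 2 colors of an array. The median shift of the 200 probes from their own means was 0.17 in both colors of 1.0 mm replicate 1, and 0.12 and 0.15 in the colors of 2.0 mm replicate 2. It was -0.19 and -0.11 in 2.0 mm replicate 1 and -0.16 and -0.12 in 2.0 mm replicate 4. On each array but 1.0 mm replicate 2 both colors moved in the same direction. For the median selected probe the mean of both colors had an SD of 0.26 between arrays of a stage, and the 2 colors of an array differed by 0.26, against 0.34 and 0.43 for the median tested probe. The scanner software normalized the colors of an array to each other, so they are not independent measures of the array.

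The stage stability is relative to the median probe of a sample, which fixes the scale. The arrays also carried 10 spike-in control sequences at 32 spots each. Their mean level relative to that median was 4.86 at 1.0 mm and 5.91 at 2.0 mm, a difference of 1.05. Between samples it ran from 3.97 to 5.17 in Cy3 and from 4.93 to 5.77 in Cy5 at 1.0 mm, and from 4.86 to 6.83 in Cy3 and from 5.72 to 6.48 in Cy5 at 2.0 mm. At 2.0 mm the lines did not overlap, with 6.19 to 6.83 in *Mu killer* and 4.86 to 5.95 in *Mu* active. At 1.0 mm they did, with 4.71 to 5.18 in *Mu killer* and 3.97 to 5.77 in *Mu* active. The line differences below were not set against the spike-ins. Set against the spike-ins instead of the median probe, the median stage difference of the 200 probes was -1.06, and none of them would have been chosen. The amount of control RNA added per sample is not given in the sources used here, and its part in these differences between stages and lines was not tested.

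**Figure D3:**
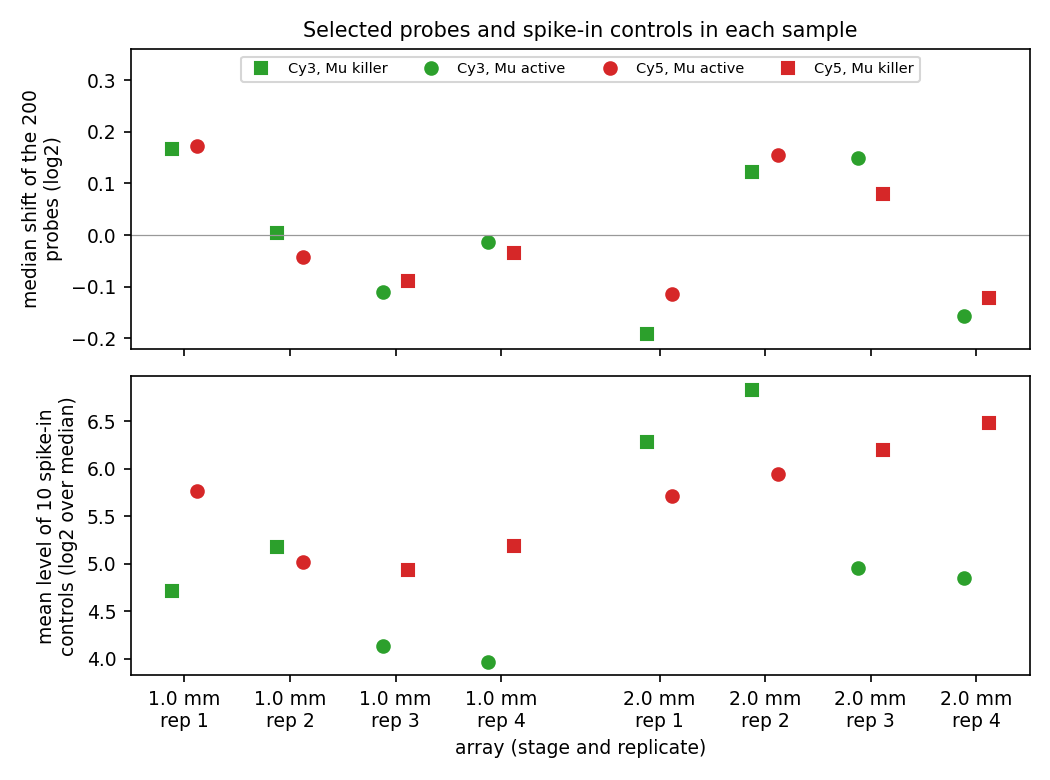
For each array, the median shift of the 200 selected probes from their own means (upper panel, log2) and the mean level of the 10 spike-in controls (lower panel, log2 over the sample median), with Cy3 in green, Cy5 in red, *Mu* active as circles and *Mu killer* as squares. The shifts stay between -0.19 and 0.17, while the spike-in controls have a mean of 4.86 at 1.0 mm and of 5.91 at 2.0 mm.

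The membership also depended on how the same spots were turned into values. With mean signals minus local background, 121 of the 200 probes met the stage limit, and the median stage difference was -0.10. With signals corrected by the normexp method and normalized by loess in single channels, 78 met it and 120 were lower at 2.0 mm, with a median of -0.33. In the authors' normalized intensities, 71 met it and 125 were lower at 2.0 mm, with a median of -0.36. The same rule applied to these 3 sets of values chose 118, 78 and 70 of the 200 again. Leaving out each array in turn retained between 166 and 181. Only 16 of the 200 were chosen under every alternative tried except the spike-in centering, among them TC310490, the eleventh by level, and TC310261 and TC279856, the steadiest probes.

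Some identifiers were measured by more than 1 probe, which gives a measure the choice did not use. For 22 of the 200 identifiers the array carried 1 other probe, and all 22 passed the background criterion in every sample. None of them reached the level of the selected probes. Their mean levels ran from -3.06 to 5.73, with a median of -0.06, and 11 of them were below the sample median. The selected probe was higher than the other probe of its identifier by 0.57 to 9.67 on the log2 scale, with a median of 7.27. Over the 1245 identifiers that had 2 tested probes, the median difference between their levels was 2.73, but the comparison is not one of equals, since a pair was included here for its strong member.

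Only 5 of the 22 other probes (22.7%) met the stage limit, against 30.8% of all tested probes. Of the rest, 9 were higher and 8 lower at 2.0 mm. The median size of their stage difference was 0.48, against 0.43 over all tested probes and 0.12 for the 200. The examples that follow were chosen after their values were seen. The smallest stage differences among the other probes were 0.04 (TC304871), -0.06 (TC305602) and -0.15 (TC304903).

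TC299647 showed the widest contrast. Its selected probe had a mean level of 7.15 and a stage difference of -0.06. The other probe ranged from -3.44 to -1.99 at 1.0 mm (median -2.74) and from -2.80 to -0.47 at 2.0 mm (median -1.21), a stage difference of 1.36. The stages of that second probe overlapped in part.

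In the opposite direction, the selected probe of TC297891 had a mean level of 7.03 and a stage difference of -0.16. Its other probe ranged from 2.88 to 4.70 at 1.0 mm (median 3.79) and from 1.59 to 3.70 at 2.0 mm (median 2.31), a difference of -1.26. The identifier with the nearest levels was TC305159, at 6.30 and 5.73, and there both probes had stage differences of like size, 0.23 and 0.35. Which transcript or region each probe binds is not given in the array output, so agreement within an identifier cannot be read as agreement about a gene.

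**Figure D4:**
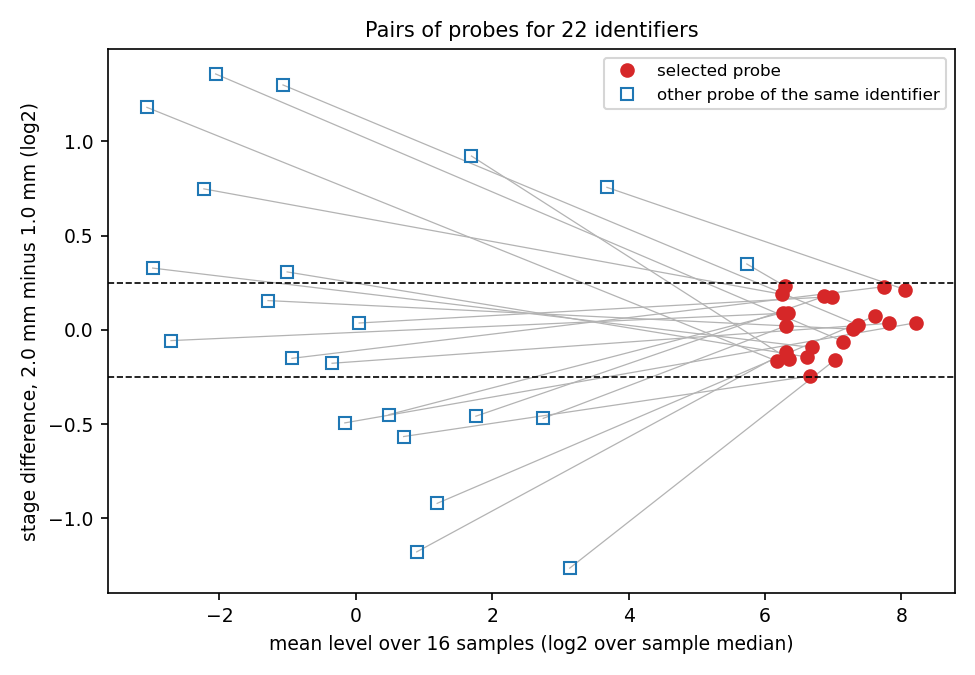
For 22 identifiers, the selected probe (red circle) and the other probe of the same identifier (blue square), joined by a line, with the mean level on the x axis (log2 over the sample median) and the stage difference on the y axis (log2, 2.0 mm minus 1.0 mm). The other probes spread over levels from -3.06 to 5.73, and 5 of the 22 lie between the dashed lines at 0.25 in either direction.

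The line of the plant played no part in choosing the probes, so the difference between *Mu killer* and *Mu* active was tested. Ratios were taken within each array after normexp background correction and loess, and a limma model with a term for each stage and for the dye was fitted to all maize probes. A call required both a 1.5-fold difference or more and an unadjusted p under 0.05, and a second count required an adjusted p under 0.05 over the 28295 tested probes.

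Most of the abundant stage-stable probes had similar signals in the 2 lines, relative to the other probes of each array. Averaged over both stages, 196 of the 200 (98%) differed by less than 1.5-fold, a share not counted over all tested probes. The median size of that log2 difference was 0.13 for the 200 and 0.15 over all tested probes. With every array centered on its median and no loess, it was 0.30 and 0.20. At 1.0 mm, 4 of the 200 probes (2%) were called, 1 higher and 3 lower in *Mu killer*, beside 1.46% of all tested probes. At 2.0 mm, 8 (4%) were called, 1 higher and 7 lower, beside 5.1% of all tested probes. For the mean of both stages, 4 (2%) were called, 1 higher and 3 lower, beside 2.81%. These shares are near those of the background under this setting, but not under all others. At 2.0 mm, 9 of the 200 were called with a normexp offset of 0, beside 3285 of the 28295. Log ratios of the processed signals gave 7 of the 200, beside 4768 of the 28295. In the other direction, median centering gave 10%, beside 7.5%, and the authors' normalized intensities gave 20 of 199, beside 1258 of 28255.

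None of the 200 was called in limma with the adjusted p, at 1.0 mm, at 2.0 mm or for the mean, beside 0.00353%, 0.00353% and 0.00707% of all tested probes. At any fold, 18 of the 200 (9%) at 1.0 mm, 26 (13%) at 2.0 mm and 36 (18%) for the mean had an unadjusted p under 0.05, beside 6.58%, 17.7% and 23.2% of all tested probes. The lowest adjusted p of a selected probe was 0.68 at 1.0 mm, 0.21 at 2.0 mm and 0.089 for the mean. These counts changed when the array of 2.0 mm replicate 3 was left out. Without it, 7 of the 200 (3.5%) passed the adjusted threshold at 2.0 mm (1 higher, 6 lower), beside 11.3% of all tested probes. For the mean of both stages 6 (3%) passed (1 higher, 5 lower), beside 5.33%.

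TC280273 had the largest difference between the lines and the largest SD of the 200 (167th by level, mean 6.41). In *Mu* active it read 4.93, 5.65, 5.43 and 6.41 at 1.0 mm and 6.00, 5.72, 5.18 and 4.92 at 2.0 mm. In *Mu killer* it read 7.28, 7.63, 7.18 and 7.18 at 1.0 mm and 7.29, 7.88, 7.09 and 6.71 at 2.0 mm. Every *Mu killer* sample was above every *Mu* active sample at both stages. The log2 ratio (*Mu killer* over *Mu* active) was 1.63 ± 0.25 (SE) at 1.0 mm and 1.67 ± 0.25 at 2.0 mm, and was positive on all 8 arrays, from 0.79 to 2.37. The mean over stages was 1.65 ± 0.18, a 3.14-fold difference, with a limma adjusted p of 0.089. The adjusted p was 0.048 with a normexp offset of 0 and 0.016 without 2.0 mm replicate 3. Over the 17 alternatives it ran from 0.016 to 0.30. Without 2.0 mm replicate 3 the unadjusted limma p of the probe was higher, 2.4e-04 against 4.4e-05. More of the tested probes passed the adjusted threshold there, 1509 against 2.

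CF019850 was lower in *Mu killer* (133rd of the 200, mean level 6.70). Its *Mu* active samples read 7.08, 6.96, 7.36 and 7.24 at 1.0 mm and 6.80, 7.13, 8.09 and 7.31 at 2.0 mm. Its *Mu killer* samples read 6.58, 6.14, 6.56 and 5.89 at 1.0 mm and 6.35, 6.20, 6.24 and 5.35 at 2.0 mm, all below the lowest *Mu* active sample. The log2 ratio was -0.92 ± 0.17 at 1.0 mm and -1.27 ± 0.17 at 2.0 mm, negative on all 8 arrays. The mean was -1.09 ± 0.12 (2.14-fold lower), with a limma adjusted p of 0.089, or 0.016 without 2.0 mm replicate 3. Over the 17 alternatives the adjusted p ran from 0.016 to 0.29. The unadjusted limma p was higher without 2.0 mm replicate 3, 2.9e-04 against 5.2e-05.

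TC280509 was the strongest of the 3, at a mean level of 8.34 (20th of the 200), and was also lower in *Mu killer*. At 1.0 mm its *Mu* active samples read 9.28, 8.69, 8.89 and 8.45. At 2.0 mm they read 8.61, 9.01, 8.77 and 8.54. In *Mu killer* it read 8.18, 7.65, 8.35 and 7.61 at 1.0 mm and 8.40, 7.92, 7.89 and 7.23 at 2.0 mm. The lines did not overlap, although the gap between the lowest *Mu* active sample (8.45) and the highest *Mu killer* sample (8.40) was small. Its mean log2 ratio was -0.93 ± 0.15 (1.91-fold lower, negative on 8 of 8 arrays), with a limma adjusted p of 0.15, or 0.023 without 2.0 mm replicate 3. Over the 17 alternatives the adjusted p ran from 0.023 to 0.39. Without 2.0 mm replicate 3 its unadjusted limma p was higher too, 2.2e-03 against 6.0e-04.

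These 3 were the selected probes whose lines did not overlap over the 16 samples. One was higher and 2 were lower in *Mu killer*, while over all tested probes 8 (0.0283%) had every *Mu killer* sample above and 8 (0.0283%) had every *Mu killer* sample below every *Mu* active sample. Of the 16 tested probes with such a separation, 3 were thus among the 200. TC310392, the fourth probe called at 1.0 mm and for the mean, overlapped between the lines. It had a mean log2 ratio of -0.59 ± 0.18 and was named for its dye difference as well.

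**Figure D5:**
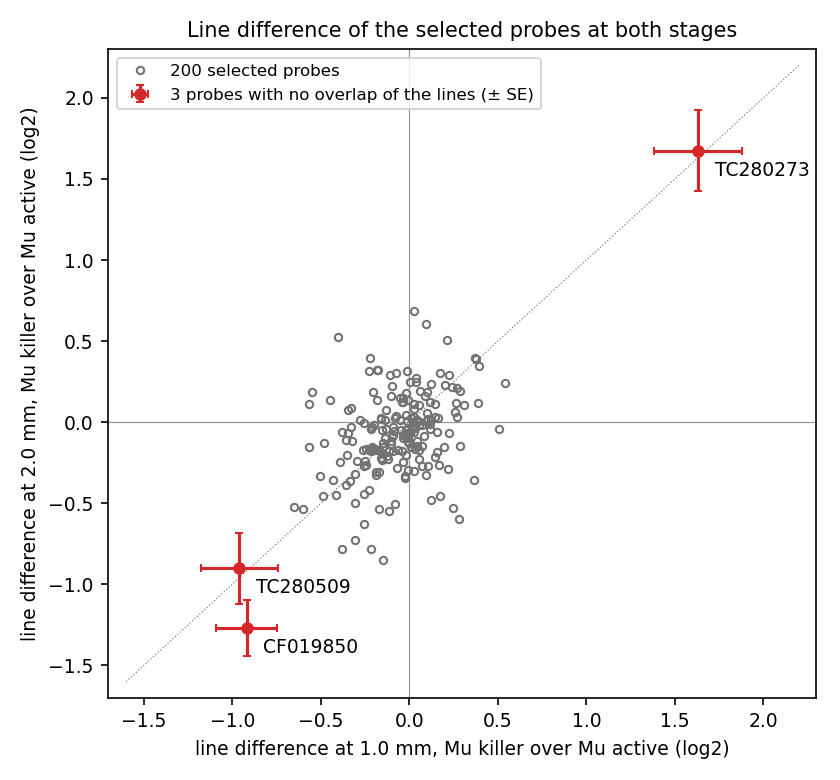
Line difference (log2, *Mu killer* over *Mu* active) at 1.0 mm (x axis) and 2.0 mm (y axis) for the 200 selected probes, with the 3 probes whose lines did not overlap in red (bars, SE from limma) and the line of equality dotted. TC280273 lies at 1.63 and 1.67, CF019850 at -0.92 and -1.27, and TC280509 at -0.96 and -0.90. At 2.0 mm, TC310942 (-0.85) and TC304903 (-0.78) lie close to TC280509.

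As a whole the 200 probes lay slightly below 0 in *Mu killer*. The median log2 ratio was -0.04 at 1.0 mm and -0.07 at 2.0 mm, beside 0.00 and -0.01 over all tested probes. For the mean of both stages it was -0.06, beside -0.00036 over all tested probes. Of the 200, 130 (65%) had a mean below 0, a share not counted over all tested probes. After loess, the per-array medians were negative on all 8 arrays, from -0.15 to -0.01. The size depended on the normalization. With every array centered on its median and no loess, the medians were -0.24 and -0.34 beside -0.12 and -0.16 over all tested probes, and 20 probes (10%; 1 higher, 19 lower) were called at 2.0 mm in place of 8. Of all tested probes, 7.5% were then called there, 248 higher and 1873 lower. The per-array medians then had both signs, from -0.73 to 0.41. With log ratios of the processed signals, the medians were -0.0022 and -0.059, beside 0.021 and -0.0079 over all tested probes. Their per-array medians, turned to *Mu killer* over *Mu* active, had both signs too.

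Whether the line difference changed with the stage was tested by the contrast of both stage terms. Of the 200 probes, 3 (1.5%) were called, beside 0.795% of all tested probes, and all 3 had a lower ratio at 2.0 mm. None of the 200 passed the adjusted threshold in limma, beside 0% of all tested probes, and 6 (3%) had an unadjusted p under 0.05 at any fold, beside 2.68%. The 3 probes, named after their values were seen, were TC281761 (-0.88 ± 0.35), TC294658 (-0.77 ± 0.29) and TC287333 (-0.63 ± 0.23), each with a limma adjusted p of 1.00. The 3 probes separated by line had contrasts of 0.04 ± 0.35 (TC280273), -0.35 ± 0.24 (CF019850) and 0.06 ± 0.31 (TC280509), so an equal line difference at both stages and a moderate change were both within the error.

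The dye was balanced over the lines and was tested as well. One of the 200 probes (0.5%), TC310392, was called for a difference between Cy5 and Cy3, beside 0.838% of all tested probes, and none passed with the limma adjusted p, beside 0% of all tested probes. At any fold, 29 (14.5%) had an unadjusted p under 0.05, beside 12.9% of all tested probes. The log2 difference of Cy5 over Cy3 was 0.63 ± 0.18 for TC310392, 0.54 ± 0.24 for TC279841 and 0.53 ± 0.14 for TC298893, with limma adjusted p of 0.37, 0.40 and 0.37. TC298893 was also the most variable of the 12 strongest probes. Over the 200 the dye difference had a median of 0.01 and ranged from -0.51 to 0.63.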

How the data were processed

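RNA of 16 anther samples was labeled and hybridized in pairs on 8 maize arrays. The authors deposited the scanner output of Agilent Feature Extraction 9.5.3.1 with intensities per color (mean, local background and a processed signal from which the software had subtracted background and removed dye bias), and a table of normalized intensity per channel whose steps are not given in the sources used here. Against the scanner ratios, the table's column pairs followed the array in mirrored order in the other color (r from -0.91 to -0.87 across probes, which are not independent replicates), so it served as an alternative only. Its centering is unknown, and which of the table and the scanner output has its replicates and colors in the true order was not resolved.

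Levels were the log2 of the deposited processed signal minus the sample median, with control spots (1264 positive, 153 negative) left out. Line ratios used normexp (offset 50) and loess in limma 3.58.1 (R 4.3.3), outlier spots left out, with Benjamini-Hochberg adjustment over the 28295 tested probes. The fit was also run on simulated ratios with independent errors for each probe and array. These hold no deviations shared by an array, so they cannot show how such deviations affect the calls. Tables and plots used Python 3.11.15, numpy 2.4.6, pandas 2.3.3 and matplotlib 3.10.9. The number of arrays limits the precision. The biological origin of the replicates rests on the methods of the study.

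The members and lists were chosen with earlier results of these data known. The text names the 12 strongest members, the 2 on each side of each threshold, the 3 smallest and 3 largest SDs, up to 3 members per stage and for the mean with the largest line difference past the unadjusted threshold and one direction on all arrays, and the 3 largest dye differences. Lists by product name could not be used because the array's descriptions read Unknown for every maize probe. A few probes carry a gene symbol as identifier, and of the anther, leaf and pollen symbols on the list only AM1 was among them.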

Additional observations from a re-analysis of the deposited data

Results flagged for a closer look

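Among 58 groups of values of the named probes, 4 held a sample far from the others of its stage by Dixon's criterion, which chance alone meets in about 1 of 20 groups. All 4 were low samples. TC279831 read 8.79 in 2.0 mm *Mu* active replicate 1, against 9.09 to 9.33 in the other 7 samples. TC292549 read 7.99 in 2.0 mm *Mu* active replicate 4, against 9.08 to 9.67 in the others, and the *Mu killer* sample on the same array read 9.28. TC286664 read 8.32 in 1.0 mm *Mu killer* replicate 4, against 8.54 to 8.68 in the others. TC311468 read 6.35 in 1.0 mm *Mu* active replicate 4, against 6.55 to 6.71.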

How the results depend on the processing

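Of the 200 probes, the rule chose 118 again with mean signals minus local background, 78 with normexp and loess in single channels, 70 with the authors' normalized intensities, 124 with a stage limit of 0.15, 130 with a limit of 0.5 and 0 when levels were centered on the spike-in controls, an alternative added after the data were seen. Leaving out an array retained 166 to 181. In what follows, counts over the 28295 tested probes are given beside those of the 200. Line calls at 1.0 mm stayed within 1.5 times the 4 reported, with 3 to 6 when an array was left out, beside 408 to 997. At 2.0 mm (8) they were 20 with median centering, beside 2121, and 20 of 199 with the authors' values, beside 1258 of 28255. Without an array they were 8 to 15, beside 809 to 4523. The highest, 15, came without 2.0 mm replicate 2, beside 1088, and 13 without 2.0 mm replicate 3, beside 4523. For the mean (4) they were 15 with median centering, beside 2073, and 8 of 199 with the authors' values, beside 647 of 28255. Without an array they were 4 to 7, beside 559 to 1894. At 2.0 mm, adjusted calls without an array ran from 0 to 7, beside 1 to 3190. For the mean they ran from 0 to 6, beside 1 to 1509. With an offset of 0, 1 adjusted call (TC280273) was made for the mean, beside 7. With processed log ratios, stage-dependence calls (3) fell to 1, beside 737, and dye calls (1) to 0, beside 1269. Dye calls were 7 with median centering, beside 369. Leaving out an array gave 0 to 11 for stage dependence, beside 190 to 1469, and 0 to 4 for dye, beside 146 to 522. With the authors' values, 6 of 199 probes were called for stage dependence, beside 241 of 28255, and 3 for dye, beside 189. The median line difference moved to -0.24 (1.0 mm) and -0.34 (2.0 mm) with median centering, to -0.0022 (1.0 mm) with processed log ratios and to -0.20 (2.0 mm) with the authors' values. The cause was not tested. TC280273, CF019850 and TC280509 kept their direction and passed the fold and the unadjusted p in all 18 alternatives at each stage and all 17 for the mean.

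Whether same-numbered samples of the 2 stages came from the same plants was not settled, and the main fit did not pair them. Deviations of same-numbered arrays correlated at 0.02, -0.29, -0.21 and 0.34 for replicates 1 to 4. With the replicate block the calls were 4 at 1.0 mm, 9 at 2.0 mm, 4 for the mean, 3 for stage dependence and 1 for dye, with medians of -0.041 and -0.065. Over the 28295 tested probes the calls were 421, 1439, 844, 186 and 260 in the same order.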
